A study of Mus musculus with 30 samples.

Results

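The inflammasome genes and the interleukin 18 axis were described as 9 genes of 54146 in the count table of J774 cells, a mouse macrophage-like cell line. The genes were chosen by symbol, and each matched 1 identifier: the sensors Nlrp3, Nlrc4 and Nlrp1b, the adaptor Pycard, the proteases Casp1 and Casp4, the pore-forming protein Gsdmd, the cytokine Il18 and its soluble inhibitor Il18bp. Polyadenylated RNA was sequenced from 5 clones that each grew from a single cell. WT1, WT2 and WT3 were wild type clones that had not been electroporated, whereas KO1 and KO2 had been electroporated with Cas9 and a pair of guide RNAs and carried a homozygous deletion of B2_Mm2.Dicer1, a SINE B2 element in the first intron of Dicer1. Each clone was left untreated (UT) or stimulated with 100 ng/mL mouse interferon gamma (IFNG) for 4 h, and 3 libraries were made for every combination, 30 in all. The 3 libraries of a clone were not independent clones. The p-values of fits within a clone, among clones and between clone pairs measured only the spread between these libraries, which may be technical. In fits of KO against WT, which had no clone term, this spread was mixed with that between clones. In fits of the response over the 5 clones or by genotype, it was mixed with differences of response between clones. Both still took each library as independent. The editing procedure and the deletion cannot be told apart by these groups.

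Inflammasomes are cytosolic complexes that form when a sensor detects a microbial product or cell damage. The sensor recruits caspase-1, often through the adaptor ASC (encoded by Pycard), and caspase-1 matures interleukin 1 beta and interleukin 18 and cleaves gasdermin D, whose amino-terminal part forms pores in the plasma membrane. In a parallel route, mouse caspase-11 (encoded by Casp4) binds cytosolic lipopolysaccharide and cleaves gasdermin D directly, and interleukin 18 released from macrophages stimulates T and NK cells to make IFNG, an action held in check by interleukin 18 binding protein.

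Counted fragments per library ranged from 15566122 to 37992642, and all 9 genes passed the filter on low counts in every comparison. The 8 macrophage markers examined were all detected at a median of at least 1 CPM (counts scaled to a common library size with TMM factors), whereas T cell, B cell and epithelial markers each summed to at most 0.18 CPM in any library. Of the macrophage markers, Adgre1 varied widely between libraries, from 9.27 to 294 CPM. Neutrophil markers summed to 1.23 to 3.48 CPM (1 of 4 at a median of at least 1 CPM), endothelial markers to 1.37 to 3.25 CPM (1 of 2) and fibroblast markers to 0.331 to 2.92 CPM (0 of 3); their part in the results was not tested. In bulk RNA, fewer cells with a transcript and less of it per cell cannot be told apart. Dicer1 was lower in KO than in WT libraries both untreated (log2FC = -0.43 (SE 0.11), edgeR adjusted p = 0.00689) and after IFNG (log2FC = -0.80 (SE 0.089), edgeR adjusted p = 1.35e-05), and Irf1 rose 34.5-fold over the 5 clones. The clones differed widely: 9.3% (WT3 against WT2) to 51.7% (WT2 against WT1) of 14467 genes differed between a pair of untreated clones.

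Casp4 and Il18bp, which rose most of the 9 genes, and Nlrp3, which fell most, are shown with their promoters, 300 bases from 250 bases before to 50 bases after the RefSeq start (GRCm38.p6), 5′ to 3′ on the strand of the gene. Capitals mark matches to a kappaB-like motif, the only motif of the 3 searched that was found in any window of the 9 genes.

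Casp4, chr9:5308599-5308898, plus strand: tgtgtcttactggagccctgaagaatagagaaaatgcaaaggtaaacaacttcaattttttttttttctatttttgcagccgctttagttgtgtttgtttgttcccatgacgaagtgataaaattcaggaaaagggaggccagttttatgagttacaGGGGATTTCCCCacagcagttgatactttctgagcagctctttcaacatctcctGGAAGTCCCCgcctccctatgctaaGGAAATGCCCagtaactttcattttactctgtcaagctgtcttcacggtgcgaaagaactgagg
Il18bp, chr7:102018183-102018482, minus strand: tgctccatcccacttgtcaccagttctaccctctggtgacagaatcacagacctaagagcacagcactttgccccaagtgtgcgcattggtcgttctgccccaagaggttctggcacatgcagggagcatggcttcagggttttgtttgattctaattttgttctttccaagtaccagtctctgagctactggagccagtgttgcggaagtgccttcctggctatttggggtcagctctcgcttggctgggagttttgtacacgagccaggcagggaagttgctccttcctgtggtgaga
Nlrp3, chr11:59541319-59541618, plus strand: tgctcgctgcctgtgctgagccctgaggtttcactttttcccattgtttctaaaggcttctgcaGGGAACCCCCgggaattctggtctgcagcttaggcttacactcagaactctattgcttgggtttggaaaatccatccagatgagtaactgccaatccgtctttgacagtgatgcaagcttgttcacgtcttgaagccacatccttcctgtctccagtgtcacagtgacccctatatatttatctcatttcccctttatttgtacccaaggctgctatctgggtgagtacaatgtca

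The motifs were GAS (TTCNNNGAA), ISRE (GAAA, any 2 bases, GAAA) and kappaB (GGG, any 5 bases, CC), each read on both strands with overlaps allowed, and 8 of the 9 genes had a RefSeq window (11 windows in all, Gsdmd having none). No member window held a GAS or ISRE match, where 8.3% of the 32851 promoter windows held a GAS match and 3.44% an ISRE match. With shares this small, finding none in 11 windows does not set these genes apart. A kappaB match was found in the windows of Casp4, Casp1 and Nlrp3, against 50.8% of all windows. The Casp4 window held the motif at 5 starting positions, with the run of capitals nearest to the distal end formed by overlapping matches that began 93, 92 and 91 bases before the start. The 2 Casp4 windows largely overlapped and held the same matches. Nlrp3 also had 2 windows, which did not overlap, and the one not shown (chr11:59542436-59542735) held 1 match of its own, 8 bases before its start. The RefSeq start of Il18bp lay inside the gene span of the count annotation. A match is only a match of letters in this window.

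**Figure D1:**
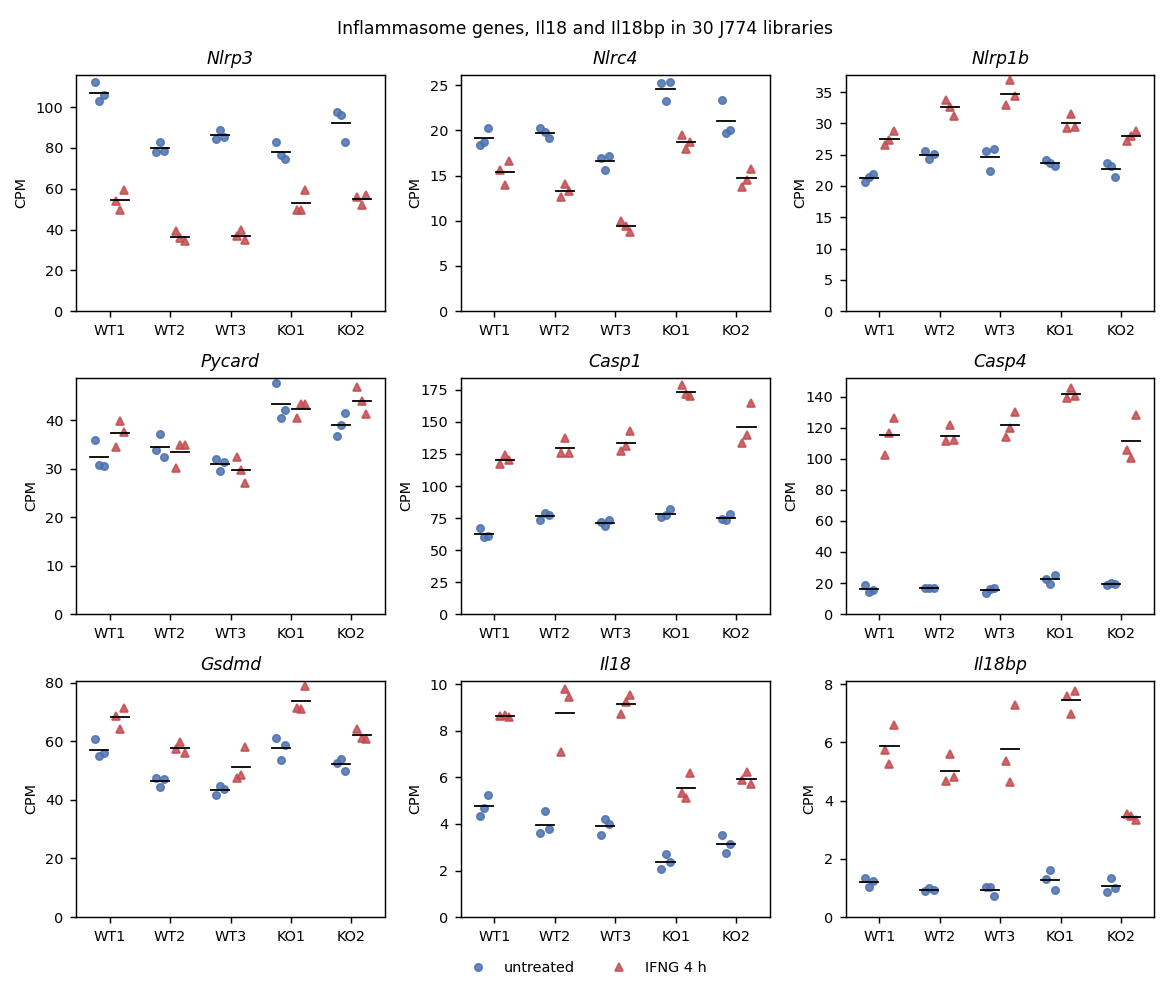
CPM of each of the 9 genes (linear axes from 0) in the 5 clones, untreated (circles) or after 4 h of IFNG (triangles); each symbol is 1 library and each bar the mean of 3. In every clone the IFNG libraries of Casp4 lie above 100 CPM and the untreated ones below 26 CPM, while the Pycard libraries overlap.

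To ask which components responded to IFNG, its effect was fitted in each clone by itself and then over the 5 clones. Casp4 (6.72-fold) and Il18bp (4.92-fold) rose most, Il18 (2.08-fold) and Casp1 (1.93-fold) rose less, Nlrp1b (1.30-fold) and Gsdmd (1.22-fold) rose least, and Nlrp3 and Nlrc4 fell, whereas Pycard did not pass the test in any clone. This made 8 of 9 genes past an adjusted p of 0.05 (edgeR) in each clone, 6 higher and 2 lower, where 21.2% of 14088 genes tested were called in WT1 (11.8% higher and 9.47% lower), 34.5% of 13090 in WT2 (17.4% higher and 17% lower), 36.1% of 13407 in WT3 (18.6% higher and 17.5% lower), 29.4% of 13757 in KO1 (16.2% higher and 13.2% lower) and 27.1% of 14038 in KO2 (13.9% higher and 13.2% lower). In the fit over the 5 clones the same 6 genes were higher and the same 2 lower, where 53.2% of 14525 genes were called, 24.9% higher and 28.3% lower. The median log2FC of the 9 genes was 0.38, beside -0.0081 over all genes tested. The 6 genes that rose had every IFNG library above every untreated library in each of the 5 clones, and the 2 that fell had every IFNG library below, which held for 9.87% (all above) and 8.32% (all below) of genes tested.

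Among the sensors, Nlrp3 (chr11:59541568-59566956, plus strand, mm10), which responds to ion fluxes and membrane damage and whose transcript is induced by microbial priming, fell in each clone. In CPM, untreated Nlrp3 libraries were at 112, 103 and 106 in WT1, 78.01, 83.1 and 78.5 in WT2, 84.4, 88.95 and 85.3 in WT3, 82.8, 76.7 and 74.5 in KO1, and 97.7, 96.1 and 82.9 in KO2. After IFNG the Nlrp3 libraries were at 54.04, 49.8 and 59.4 in WT1, 39.4, 35.6 and 34.3 in WT2, 36.6, 39.7 and 34.7 in WT3, 49.4, 49.8 and 59.2 in KO1, and 55.9, 52.1 and 57.04 in KO2. The highest treated library lay below the lowest untreated one, also across clones. The log2FC was -0.99 in WT1, -1.12 in WT2, -1.21 in WT3, -0.53 in KO1 and -0.75 in KO2, and -0.92 (SE 0.052) over the 5 clones (edgeR adjusted p = 3.41e-17), a 1.89-fold decrease. Nlrc4 (chr17:74426295-74459108, minus strand), which with NAIP proteins detects bacterial flagellin and secretion system parts, fell less. Its mean CPM untreated was 19.1 ± 1.01 in WT1, 19.7 ± 0.575 in WT2, 16.6 ± 0.831 in WT3, 24.6 ± 1.15 in KO1 and 21.01 ± 2.01 in KO2 (SD, n = 3). After IFNG it was 15.4 ± 1.37 in WT1, 13.3 ± 0.709 in WT2, 9.38 ± 0.591 in WT3, 18.7 ± 0.812 in KO1 and 14.7 ± 1.01 in KO2. The largest fall of Nlrc4 was in WT3, whose libraries were the lowest of the 5 clones after IFNG. Its log2FC was -0.32 in WT1, -0.56 in WT2, -0.81 in WT3, -0.36 in KO1 and -0.53 in KO2, and -0.51 (SE 0.043) over the 5 clones (edgeR adjusted p = 1.63e-12). In WT1 the Nlrc4 call was lost when either of 2 libraries was left out (edgeR adjusted p of 0.0921 without 1 untreated and 0.0694 without 1 treated library). Nlrp1b (chr11:71153102-71230733, minus strand), the sensor that anthrax lethal factor cleaves, moved the other way. The untreated Nlrp1b libraries spanned 20.6 to 25.8 CPM and the treated ones 26.5 to 36.98 CPM, with no overlap. Its log2FC was 0.36 in WT1, 0.40 in WT2, 0.51 in WT3, 0.38 in KO1 and 0.29 in KO2, and 0.38 (SE 0.028) over the 5 clones (edgeR adjusted p = 5.57e-14), a 1.30-fold rise. Nlrp1b has close paralogs, and fragments that aligned to more than 1 place had been discarded.

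Pycard (chr7:127989708-127993867, minus strand), the adaptor that joins sensors to caspase-1, gave no call in the fits by clone. Its lowest, median and highest libraries were 29.6, 35.96 and 47.8 CPM untreated and 27.02, 37.6 and 46.9 CPM after IFNG, and the 2 treatments overlapped in every clone. The log2FC was 0.19 in WT1, -0.039 in WT2, -0.043 in WT3, -0.0050 in KO1 and 0.17 in KO2, and 0.054 (SE 0.038) over the 5 clones (edgeR adjusted p = 0.244), with a sign that differed between clones. In WT1 and KO2, where the estimate was highest, leaving out 1 particular library gave an edgeR adjusted p of 0.0456 and 0.0222 respectively, and in WT1 a single edgeR fit over the 30 libraries gave 0.0465.

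The 2 caspase genes lie next to each other on chromosome 9 (Casp1 at chr9:5298517-5307265, plus strand, and Casp4 at chr9:5308828-5336783, plus strand) and shared no exonic bases. Casp4, the sensor and protease of the lipopolysaccharide route, rose most of the 9 genes. In CPM, untreated Casp4 libraries were at 18.7, 14.2 and 15.4 in WT1, 16.8, 17.1 and 16.9 in WT2, 13.4, 15.9 and 16.995 in WT3, 22.4, 19.5 and 25.3 in KO1, and 18.5, 19.8 and 19.7 in KO2. After IFNG the Casp4 libraries were at 102, 117 and 126 in WT1, 111, 121 and 112 in WT2, 114, 120.1 and 130.2 in WT3, 139, 146 and 140.3 in KO1, and 106, 101 and 128 in KO2. All 15 treated libraries exceeded 100 CPM and no untreated library reached 26 CPM. The log2FC was 2.83 in WT1, 2.78 in WT2, 3.0 in WT3, 2.69 in KO1 and 2.52 in KO2, and 2.75 (SE 0.050) over the 5 clones, a 6.72-fold rise (edgeR adjusted p = 4.56e-32). Casp1, the protease of the canonical route, started higher and rose less. The mean CPM of Casp1 untreated was 62.7 ± 3.85 in WT1, 76.3 ± 2.79 in WT2, 71.3 ± 2.49 in WT3, 78.4 ± 3.001 in KO1 and 75.3 ± 2.42 in KO2 (SD, n = 3). After IFNG it was 121 ± 3.22 in WT1, 129.7 ± 6.98 in WT2, 134 ± 8.19 in WT3, 173 ± 4.70 in KO1 and 146 ± 16.5 in KO2, with KO1 highest. The Casp1 log2FC was 0.93 in WT1, 0.78 in WT2, 0.92 in WT3, 1.18 in KO1 and 0.95 in KO2, and 0.95 (SE 0.033) over the 5 clones, a 1.93-fold rise (edgeR adjusted p = 3.34e-23). Taken per kb of exon within each library, the Casp4 level was 0.0998 ± 0.0128 of the Casp1 level untreated and 0.349 ± 0.0324 after IFNG (SD, n = 15), and the ranges of this ratio (0.0752 to 0.125 and 0.291 to 0.424) did not overlap.

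Gsdmd (chr15:75862327-75867408, plus strand), the substrate of both caspases, changed little in level. The mean CPM of Gsdmd untreated was 57.1 ± 3.06 in WT1, 46.3 ± 1.78 in WT2, 43.3 ± 1.56 in WT3, 57.8 ± 3.802 in KO1 and 52.1 ± 2.08 in KO2 (SD, n = 3). After IFNG it was 68.1 ± 3.66 in WT1, 57.7 ± 1.82 in WT2, 51.3 ± 5.85 in WT3, 73.7 ± 4.42 in KO1 and 61.98 ± 1.99 in KO2. The 2 treatments did not overlap within a clone, but they did across clones, since KO1 and WT1 untreated were at the level of WT2 treated. The Gsdmd log2FC was 0.24 in WT1, 0.34 in WT2, 0.25 in WT3, 0.38 in KO1 and 0.25 in KO2, and 0.28 (SE 0.028) over the 5 clones, a 1.22-fold rise (edgeR adjusted p = 9.62e-11). In WT1 its call was lost when any of 3 libraries was left out, with an edgeR adjusted p of up to 0.09.

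Il18 (chr9:50554827-50581840, plus strand), a cytokine kept as an inactive precursor until caspase-1 cleaves it, was among the least abundant of these transcripts and rose in each clone. In CPM, untreated Il18 libraries were at 4.36, 4.69 and 5.23 in WT1, 3.59, 4.55 and 3.77 in WT2, 3.52, 4.20 and 4.00 in WT3, 2.07, 2.72 and 2.35 in KO1, and 3.54, 2.74 and 3.12 in KO2. After IFNG the Il18 libraries were at 8.63, 8.68 and 8.58 in WT1, 7.09, 9.77 and 9.44 in WT2, 8.73, 9.23 and 9.52 in WT3, 5.31, 5.12 and 6.17 in KO1, and 5.90, 6.22 and 5.69 in KO2. Within each clone all treated libraries were above the untreated ones, but the lowest treated KO1 library was below the highest untreated WT1 library. The log2FC was 0.85 in WT1, 1.14 in WT2, 1.24 in WT3, 1.24 in KO1 and 0.92 in KO2, and 1.06 (SE 0.059) over the 5 clones, a 2.08-fold rise (edgeR adjusted p = 2.18e-17). Il18bp (chr7:102014885-102018690, minus strand), the secreted protein that binds interleukin 18 and keeps it from its receptor, had the lowest counts of the 9 genes, 13 to 210 fragments per library. In CPM, untreated Il18bp libraries were at 1.33, 1.04 and 1.26 in WT1, 0.885, 1.01 and 0.943 in WT2, 1.03, 1.03 and 0.722 in WT3, 1.33, 1.62 and 0.924 in KO1, and 0.868, 1.35 and 1.01 in KO2. After IFNG the Il18bp libraries were at 5.76, 5.25 and 6.59 in WT1, 4.68, 5.59 and 4.81 in WT2, 5.38, 4.64 and 7.28 in WT3, 7.58, 6.97 and 7.77 in KO1, and 3.53, 3.48 and 3.35 in KO2. The KO2 treated libraries were the lowest of the treated ones and KO1 held the highest. The log2FC was 2.27 in WT1, 2.41 in WT2, 2.60 in WT3, 2.56 in KO1 and 1.69 in KO2, and 2.30 (SE 0.093) over the 5 clones, a 4.92-fold rise (edgeR adjusted p = 1.87e-21). Per kb of exon within a library, Il18bp was 0.111 ± 0.0482 of Il18 untreated and 0.260 ± 0.107 after IFNG (SD, n = 15). Within each clone the ratio was higher in all 3 treated libraries than in all 3 untreated ones. It was highest in KO1, at 0.185 ± 0.0447 untreated and 0.460 ± 0.0291 after IFNG (SD, n = 3), whereas KO2 after IFNG (0.198 ± 0.00692) was at the level of WT2 (0.198 ± 0.0259).

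**Figure D2:**
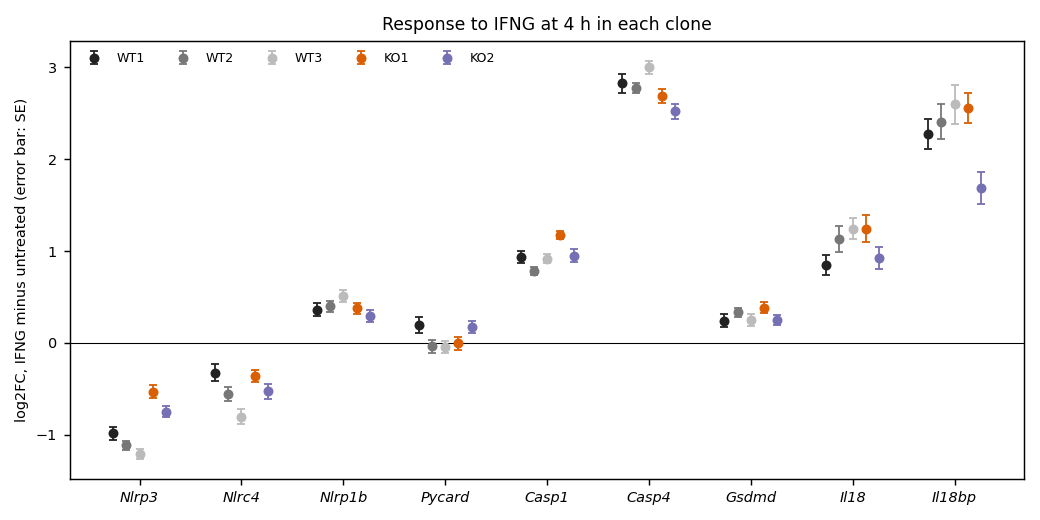
log2FC of IFNG-treated against untreated libraries in each clone (vertical axis, points with SE from edgeR) for the 9 genes (horizontal axis). Casp4 and Il18bp lie highest, Nlrp3 and Nlrc4 lie below 0 in all 5 clones, and of the 5 Nlrp3 points those of KO1 and KO2 lie nearest to 0.

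Compared per length, as mean CPM per kb of exon, the order of the genes changed with treatment. The length was that of all annotated exons of a gene, which can exceed the length of its transcripts. It was 3800 bases for Pycard, 3710 for Casp4, 1497 for Casp1, 3026 for Il18bp and 1031 for Il18. The order between genes and the size of the 2 ratios given above therefore depend on the annotation, whereas the change of a ratio with treatment does not. Untreated, Casp1 was highest in every clone (48.6 over the 15 libraries), followed by Nlrp3 (21.9) and Gsdmd (21.6), which changed places in KO1, then Pycard (9.50), Nlrc4 (5.27), Casp4 (4.86), Nlrp1b (3.72), Il18 (3.52, ahead of Casp4 in WT1) and Il18bp (0.360). After IFNG, Casp1 remained highest (93.998), Casp4 ranked second in each clone (32.6) and Gsdmd (26.3) and Nlrp3 (11.6) came next. Pycard (9.84), Il18 (7.38), Nlrp1b (4.85), Nlrc4 (3.72) and Il18bp (1.82) followed, with Il18 ahead of Pycard in WT3 and Nlrc4 ahead of Nlrp1b in KO1.

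**Figure D3:**
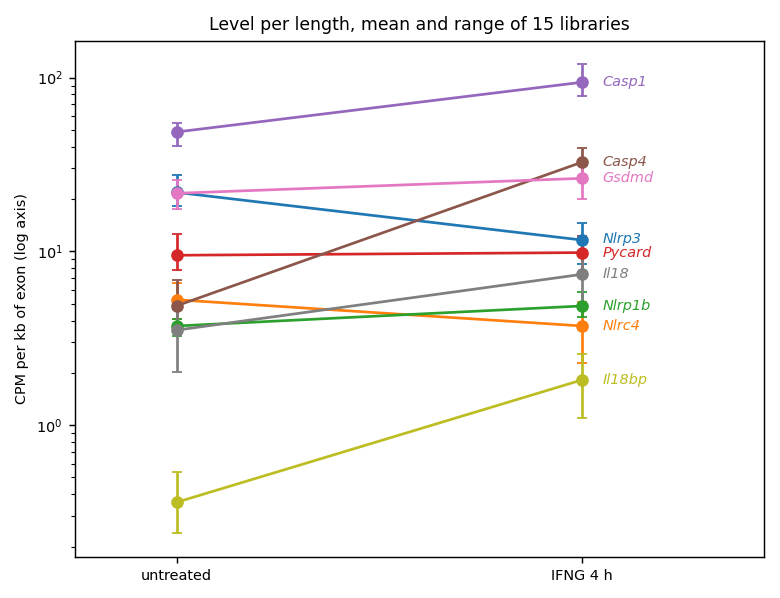
Mean CPM per kb of exon (log axis) of the 9 genes over the 15 untreated and the 15 IFNG-treated libraries, with bars from the lowest to the highest library. The Casp4 line crosses those of Nlrc4, Pycard, Nlrp3 and Gsdmd, and Il18bp is lowest under both treatments.

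Whether the size of the response differed between clones was tested with an F-test over all 30 libraries. Nlrp3 (edgeR adjusted p = 0.000141) and Nlrc4 (edgeR adjusted p = 0.0428) were the members that passed, where 3.68% of 14870 genes did. The Nlrp3 fall was smallest in KO1 and KO2. Grouped by genotype, the Nlrp3 response of KO clones was 0.45 (SE 0.072) higher on the log2 scale than that of WT clones (edgeR adjusted p = 0.000474), that is, a smaller fall, and Nlrp3 was the only one of the 9 genes called (1.02% of 14682 genes were, 0.681% with a higher response in KO and 0.341% with a lower one). Both KO clones lay above the 3 WT clones in mean log2(CPM + 0.5) response, which gives an exact permutation p of 0.1 (two-sided), the smallest that 3 against 2 clones allow. Without KO1 the Nlrp3 difference was 0.35 and no longer passed (edgeR adjusted p = 0.0824). The Nlrc4 call among clones was lost when any of 4 of the 5 clones was left out. The highest adjusted p in this edgeR F-test was 0.699, without WT3. The Nlrc4 call was also lost under RLE scaling (adjusted p = 0.0554), with no count filter (adjusted p = 0.0828) and without many single libraries. Casp1 had an adjusted p of 0.0698 in edgeR and passed in DESeq2 (adjusted p = 0.0173) and in edgeR with no count filter (adjusted p = 0.00727), where Casp4 also passed (adjusted p = 0.000623). For Casp1 and Casp4 the KO minus WT difference of the response was 0.18 (SE 0.061) and -0.27 (SE 0.089), with edgeR adjusted p of 0.234 and 0.184. The Casp4 response was lower in both KO clones than in the 3 WT clones, also with an exact permutation p of 0.1 (two-sided), and Casp4 passed in edgeR with no count filter (adjusted p = 0.00191). For Il18 the difference was -0.0060 with an SE of 0.14 (edgeR adjusted p = 0.998), and for Il18bp -0.27 (SE 0.20) (edgeR adjusted p = 0.781).

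More members passed a test of level among clones than of response, which also held for all genes tested (3.68% for response). Untreated, 8 of the 9 genes passed the F-test among the 5 clones, Il18bp being the exception (edgeR adjusted p = 0.341), and after IFNG all 9 passed, beside 73.2% of 14467 and 69.3% of 14176 genes. Without WT1 the untreated calls of Nlrp1b and Casp1 were lost (edgeR adjusted p = 0.261 and 0.0554), that of Nlrp1b also without 1 WT1 library (0.0566), and without KO1 that of treated Casp4 was lost (0.503). Untreated Nlrp3 ran from KO1 through WT2, WT3 and KO2 to WT1, and only the last step passed the test (log2 difference of 0.22, SE 0.053, adjusted p = 0.00209, edgeR, where 41.7% of genes differed between this pair of clones). After IFNG the Nlrp3 order was WT2, WT3, KO1, WT1, KO2, with a single step between neighbours past the threshold, from WT3 to KO1 (log2 difference of 0.51, SE 0.080, adjusted p = 2.47e-05, edgeR, beside 45.7% of genes in this pair). WT1, a wild type clone, lay between the KO clones. Untreated Il18 ran from KO1 through KO2, WT3 and WT2 to WT1, and KO1 differed from KO2 (log2 difference of 0.41, SE 0.15, adjusted p = 0.0478, edgeR, beside 25% of genes) while the other neighbours did not pass. After IFNG, KO1 and KO2 were lowest in Il18, and the step from KO2 up to WT1 was the only one between neighbours past the threshold (log2 difference of 0.53, SE 0.11, adjusted p = 0.000765, edgeR, beside 37.4% of genes). Treated Il18bp placed the KO clones at opposite ends, from KO2 through WT2, WT3 and WT1 to KO1 (log2 difference of 1.11, SE 0.13, adjusted p = 4.34e-06 between the ends, edgeR, beside 15.6% of genes). Treated Casp4 ran from KO2 to KO1 as well (log2 difference of 0.36, SE 0.078, adjusted p = 0.00264 between the ends, edgeR), with KO2, WT2, WT1 and WT3 not told apart as neighbours. Nlrp1b had no step between neighbours past the threshold under either treatment, and 2 of 10 clone pairs passed untreated and 5 of 10 after IFNG, while for untreated Il18bp 0 of 10 pairs passed in edgeR.

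KO1 was highest in several of the remaining genes. Pycard ran from WT3 through WT1, WT2 and KO2 to KO1 untreated (log2 difference of 0.48, SE 0.071, adjusted p = 6.72e-06 between the ends, edgeR, beside 51% of genes), and from WT3 through WT2, WT1 and KO1 to KO2 after IFNG (log2 difference of 0.56, SE 0.077, adjusted p = 8.61e-06 between the ends, edgeR, beside 38% of genes). KO1 was also highest and WT3 lowest in Gsdmd under both treatments (log2 difference of 0.41, SE 0.054, adjusted p = 1.26e-06 untreated, edgeR). In Gsdmd, KO1 was not told apart from the wild type clone WT1 (edgeR adjusted p = 0.979 untreated and 0.145 after IFNG). Casp1 ran from WT1 to KO1 under both treatments (log2 difference of 0.53, SE 0.065, adjusted p = 1.75e-06 after IFNG, edgeR, beside 43% of genes). Untreated, KO1 was not told apart from WT2 in Casp1 (edgeR adjusted p = 0.605). KO1 and KO2 differed from each other as neighbours in treated Casp1 (log2 difference of 0.26, SE 0.065, adjusted p = 0.00804, edgeR).

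Between genotypes, Il18 was lower and Pycard and Nlrc4 were higher in KO libraries under both treatments. Untreated, 4 of the 9 genes passed, namely Nlrc4, Pycard and Casp4 (higher in KO) and Il18 (lower), where 26.6% of 13886 genes were called, 12.2% higher and 14.4% lower. After IFNG, 5 passed, with Nlrp3, Nlrc4, Pycard and Casp1 higher and Il18 lower, where 23.9% of 13637 genes were called, 10.9% higher and 13% lower. The median KO minus WT log2FC of the 9 genes was 0.16 untreated and 0.20 after IFNG, beside -0.00040 and 0.00097 over all genes tested.

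Il18 had the largest difference of the 9 genes. The 9 untreated WT libraries gave a lowest, median and highest value of 3.52, 4.20 and 5.23 CPM and the 6 KO libraries 2.07, 2.73 and 3.54 CPM, which overlapped at their edge. Untreated, no member had all KO libraries on 1 side of all WT libraries, where 4.1% of genes tested had them above and 5.1% below. The untreated Il18 difference passed the test (log2FC = -0.61 (SE 0.12), edgeR adjusted p = 0.00169). After IFNG the WT libraries gave 7.09, 8.73 and 9.77 CPM and the KO libraries 5.12, 5.80 and 6.22 CPM, with no overlap (log2FC = -0.62 (SE 0.076), edgeR adjusted p = 3.16e-05), which held for 4.76% of genes tested in this direction. Pycard had KO libraries at 40.4, 43.4 and 46.9 CPM after IFNG and WT libraries at 27.02, 34.4 and 39.9 CPM, again with no overlap (log2FC = 0.37 (SE 0.072), edgeR adjusted p = 0.00141), which held for 3.21% of genes tested in this direction. Untreated, the Pycard log2FC was 0.33 (SE 0.059) (edgeR adjusted p = 0.000564). Casp4 was higher in KO libraries untreated (log2FC = 0.37 (SE 0.078), edgeR adjusted p = 0.0026), and after IFNG its log2FC was 0.11 (SE 0.081) (edgeR adjusted p = 0.333). The untreated Casp4 call was lost without KO1 (edgeR adjusted p = 0.0731), and after IFNG Casp4 was -0.077 without KO1 and 0.28 without KO2 (edgeR adjusted p = 0.00822). Casp1 was higher in KO libraries after IFNG (log2FC = 0.32 (SE 0.067), edgeR adjusted p = 0.00227), a call lost without KO1 (edgeR adjusted p = 0.132). Nlrc4 was higher by 0.30 (SE 0.071) untreated and 0.39 (SE 0.14) after IFNG (edgeR adjusted p = 0.00572 and 0.0428), and without KO1 neither passed (0.2 and 0.532), nor did the treated difference without WT2 or WT3 (0.0862 and 0.157). Its chromosome, 17, had a median KO minus WT log2FC of 0.19 over 696 genes untreated and 0.18 over 687 after IFNG, whereas the chromosomes of the other members had medians between -0.019 and 0.0013; the part of this shift in the Nlrc4 result was not tested. Treated Nlrp3 was higher by 0.34 (SE 0.12) (edgeR adjusted p = 0.0412), a call lost whenever KO1, KO2, WT2 or WT3 was left out (edgeR adjusted p from 0.176 to 0.197). Treated Il18bp was -0.032 (edgeR adjusted p = 0.928), which joined KO clones on either side of WT, with -0.69 without KO1 (edgeR adjusted p = 0.00771) and 0.43 without KO2 (edgeR adjusted p = 0.0301).

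These p-values take libraries as the unit. With counts summed per clone, 3 WT against 2 KO values, none of the 9 genes passed in edgeR under either treatment (the Il18 adjusted p was 0.353 untreated and 0.257 after IFNG in edgeR, and 1 gene in the whole table was called in each). In the exact permutation test over clones, Il18 gave a two-sided p of 0.1 under both treatments, the smallest possible, and so did Nlrc4, Pycard and Casp4 untreated and Casp1 after IFNG. The treated Pycard clone means were also apart, with a log2(CPM + 0.5) of 5.42 in KO1 and 5.47 in KO2 against at most 5.24 in a WT clone, and gave p = 0.2 in the exact test. Without KO1 the untreated Il18 difference was -0.43 (edgeR adjusted p = 0.0599).

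**Figure D4:**
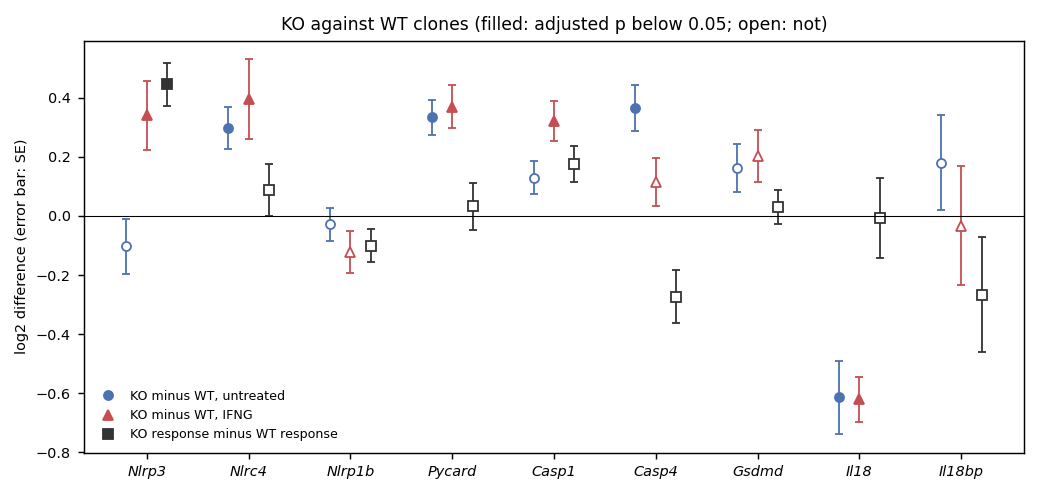
log2 differences of KO against WT libraries (vertical axis, with SE from edgeR) for the 9 genes, untreated (circles), after IFNG (triangles), and for the difference of the IFNG response (squares); filled symbols have an adjusted p below 0.05. Il18 is the only gene with both levels filled below 0, and Nlrp3 the only one with a filled square.

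Of 36 other genes of the pathway, 27 were tested over the 5 clones, and 13 rose and 7 fell, with a median log2FC of 0.16 beside -0.0081 over all genes tested. This compares with 24.9% of all genes tested called higher and 28.3% lower, and log2FC over the 5 clones in edgeR are given in parentheses. Among 15 listed sensors and partners (12 tested), 6 rose and 3 fell. The risers were Nlrp10 (0.66), Txnip (0.55), a thioredoxin-binding protein that can bind NLRP3, Nlrp1a (0.26), the channel gene Panx1 (0.24), and Naip6 (0.17) and Naip5 (0.16), partners of NLRC4 that bind flagellin. The fallers were P2rx7 (-0.31), the ATP-gated channel upstream of NLRP3, Nlrx1 (-0.17), a mitochondrial NLR protein, and Aim2 (-0.090), the cytosolic DNA sensor. By clone, Aim2 passed in WT2 (-0.27) and WT3 (-0.18) and not in WT1 (-0.011), KO1 (0.12) or KO2 (-0.074). The NLRP3 partner Nek7 had a log2FC of 0.015 (adjusted p = 0.581). Naip5 and Naip6 are close paralogs, so their counts are uncertain. Among 9 listed caspases and effectors (7 tested), 4 rose, among them Ripk3 (0.73), the necroptosis kinase, Ninj1 (0.39), which ruptures the plasma membrane late in lytic death, and Casp8 (0.32), and 2 fell, among them Gsdme (-0.49), a pore-forming relative of gasdermin D.

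Of the 5 interleukin 1 family genes, 3 were tested. Il1rn, the interleukin 1 receptor antagonist, rose (log2FC = 1.38), with treated libraries at 34.1 to 156 CPM and untreated ones at 12.8 to 80.9 CPM. Il1a rose (log2FC = 2.56) and Il1b fell (log2FC = -0.82), both from low levels (medians of 0.101 and 0.365 CPM untreated). No untreated library held Il1a above 0.249 CPM. Il1a thus passed the count filter only through treated libraries, which fixed the direction of its call. Mean Il1b went from 1.30 to 0.390 CPM in WT1, 0.261 to 0.0410 in WT2 and 0.196 to 0.0805 in WT3. In KO2 it went from 1.48 to 1.23 CPM with overlapping libraries, and in KO1 it did not fall (0.146 to 0.178 CPM). Il36g (listed as Il1f9) was not tested, with medians of 0.0385 and 0.235 CPM untreated and treated. Of the 7 receptor genes, 5 were tested. Il18rap, the accessory chain of the interleukin 18 receptor, rose (log2FC = 1.84 (SE 0.053)), from 27.6 to 80.1 CPM untreated to 94.04 to 226 CPM treated, whereas Il18r1, the chain that binds interleukin 18, was not tested, with no library above 0.224 CPM. Sigirr, an inhibitory receptor, fell (log2FC = -0.14). Il1rap (0.078), Il1rl1 (-0.064) and Il1r2 (-0.12) did not pass, with adjusted p of 0.0742, 0.0839 and 0.433. Of 26 pathway genes tested between genotypes, 2 were higher and 5 lower in KO libraries untreated, and 3 and 5 after IFNG. Over all genes tested, 12.2% were higher and 14.4% lower untreated, and 10.9% and 13% after IFNG. Il18rap was lower untreated and after IFNG (log2FC = -0.87 (SE 0.17) and -0.82 (SE 0.070), edgeR adjusted p = 0.00103 and 1.20e-06). Il1rn was higher (log2FC = 1.52 (SE 0.22) and 1.02 (SE 0.21), edgeR adjusted p = 0.000122 and 0.00192). Mean Il1rn untreated was 62.7 CPM in KO1, 25.996 CPM in KO2 and at most 16.5 CPM in a WT clone. All Casp8 and Aim2 libraries of KO clones also lay below those of WT clones under both treatments. The exact test over clones was run for the 9 members only.

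**Figure D5:**
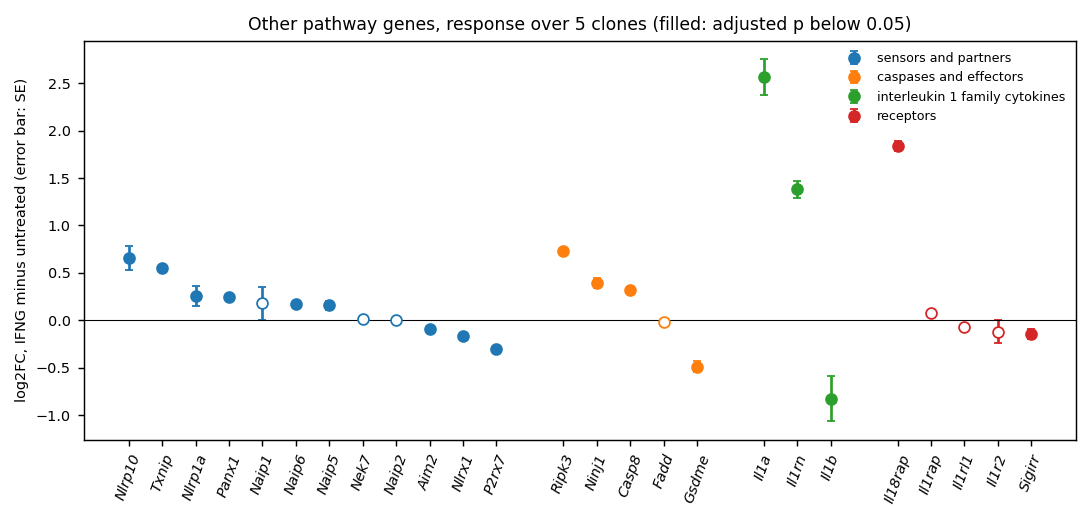
log2FC over the 5 clones (vertical axis, with SE from edgeR) of 25 tested genes of the pathway list, grouped by role in colour; filled symbols have an adjusted p below 0.05. Il1a, Il18rap and Il1rn lie above 1, and the sensors and effectors lie between Gsdme (-0.49) and Ripk3 (0.73). Il1a passed the count filter only through treated libraries.

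The genes with the most similar profile to each member were found by Pearson correlation of log2(CPM + 0.5) over the 30 libraries, which share clones and treatment, among the 12345 genes that averaged 1 CPM or more. Casp4 was most like Samd9l (r = 0.994) and Gm12250 (r = 0.992), and Il18bp most like Oasl2 (r = 0.974) and Samd9l (r = 0.973). Casp1 followed Jcad (r = 0.980) and Slfn2 (r = 0.979), and Il18 followed Dhx58 (r = 0.964) and Nabp1 (r = 0.961). For the genes that fell, Nlrp3 was most like C5ar1 (r = 0.981) and Cln8 (r = 0.971), and Nlrc4 like Pmaip1 (r = 0.936) and Dyrk3 (r = 0.934). Nlrp1b was closest to Chmp2b (r = 0.964) and Dock10 (r = 0.963), Gsdmd to Rapgef2 (r = 0.950) and Igf2bp2 (r = 0.943), and Pycard to Cops9 (r = 0.900) and Pebp1 (r = 0.894), the weakest likeness of the 9.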

How the data were processed

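RNA-seq libraries (KAPA mRNA HyperPrep, polyA, paired-end) were analysed from the deposited counts of fragments per gene. Per the file headers and the study's methods, the authors used BBDuk for trimming and HISAT2 2.1.0 for alignment to mm10, kept unique alignments and counted exons with featureCounts 1.6.2 in reversely stranded mode; the headers name Gencode vM18 and the methods RefSeq, and fragments over overlapping genes were counted for each. No exon of a member overlapped another gene on its strand. The 13 other deposited tables held the same counts (138 columns compared, 0 differed) and added nothing. Assigning columns to WT2 and WT3 rests on clone names in the tables. Labels mention more than 1 RNA input and adapter kind without assigning them, so that a batch could not be checked. Total counts (15566122 to 37992642) limit the precision of low genes, chiefly Il18bp.

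Counts were fitted with edgeR 4.0.16 (filterByExpr, TMM, glmQLFit and glmQLFTest) in R 4.3.3, over all genes, with Benjamini-Hochberg adjustment and a threshold of 0.05; the SE is the absolute log2FC over the square root of F. CPM used TMM factors from 14870 genes. Responses were fitted within each clone and over 5 clones with a clone term, differences of response and of level among clones by F-tests, and KO against WT on libraries; clone values were compared by exact permutation. Sampling noise did not account for the differences within groups of 3 libraries (chi-square over df of 1.88 to 17.9 in 30 pairs). The scripts were tested on simulated data. Alternatives were DESeq2 1.42.0, RLE scaling, other count filters, a single fit, counts summed per clone, and leaving out clones or libraries. Named genes were the 9 members and, of 36 pathway genes, the 4 most abundant of each subgroup and all past the threshold over 5 clones; per member the 2 most alike genes were named. Some genes of the list are not reported here by name. The members and lists were chosen with earlier results of these data known.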

Additional observations from a re-analysis of the deposited data

Results flagged for a closer look

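In 36 groups of 6 or 9 libraries checked for a value far from the others, of which chance picks about 1 in 20, 2 held one. One untreated KO library had an Nlrp1b level of 21.47 CPM, the lowest of 6, with a gap to its nearest neighbour of 0.668 of the range of the group. One WT library after IFNG had an Il18 level of 7.086 CPM, the lowest of 9, with a gap of 0.556 of the range. The Nlrp3 response differed between KO and WT clones by 0.445 on the log2 scale, a smaller fall in KO, and it differed among the 5 clones with an edgeR adjusted p of 0.000141. The Nlrc4 response differed among the 5 clones with an edgeR adjusted p of 0.0428.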

How the results depend on the processing

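Of 1647 values of the 9 genes under other settings, 1543 kept their direction and their side of the threshold, 54 lost and 27 gained a call, and 23 changed sign; none of the 90 values of the responses over 5 clones changed. With RLE scaling 1 member rather than 2 had a response that differed among clones, and without 1 library or clone the count was 1 to 4. With no count filter 2 members (Nlrp3 and Casp4) differed between KO and WT in response, and without 1 clone 0 (without KO1) to 2 (without KO2). With counts summed per clone, 0 members differed between KO and WT in edgeR under either treatment, and without 1 clone 1 to 5 did untreated and 3 to 7 after IFNG. Single values that changed sign were not called in the fit reported. The KO minus WT difference of the Il18 response was 0.0022 with DESeq2, 0.0018 with RLE and 0.0017 with no filter, and without 1 clone ranged from -0.14 to 0.16. Without 1 clone, that of Pycard ranged from -0.074 to 0.13, of Nlrc4 from -0.026 to 0.24, of Gsdmd from -0.025 to 0.080 and of Il18bp from -0.73 to 0.12. Without 1 clone, KO against WT ranged from -0.24 to 0.036 for Nlrp3 and from -0.094 to 0.014 for Nlrp1b untreated, and from -0.077 to 0.28 for Casp4 and from -0.69 to 0.43 for Il18bp after IFNG. Without 1 library, the Pycard response ranged from -0.077 to 0.027 in WT2, from -0.12 to 0.018 in WT3 and from -0.055 to 0.064 in KO1.

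Counts of all genes past the threshold moved most for KO against WT, from 3689 untreated and 3258 after IFNG to 7143 and 7194 in a single fit over 30 libraries and to 1 and 1 with counts summed per clone, and without 1 clone they ranged from 1674 to 6472 and from 1411 to 5992. For the KO minus WT difference of response 150 genes became 384 with no filter, and 21 to 570 without 1 clone. Among clones 547 became 919 with no filter and 319 without WT3, and over 5 clones 7727 became 4687 without a clone term. The causes were not tested. No paired analysis was possible because the columns of the count table carry no replicate numbers; leaving out each replicate number was therefore not run, and leaving out single libraries in the comparisons among clones was chosen after seeing the data. Depth limits chiefly Il18bp and Il18, with at most 210 and 219 fragments in a library.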

Other observations

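Mefv, which encodes the sensor pyrin, was below the count filter and was not tested. Its median over 15 libraries was 0.0347 CPM untreated and 0.160 CPM after IFNG.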
